A study of Glycine max with 6 samples.

Results

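The phytochromes described here are the 8 soybean (Glycine max) genes PHYA1, PHYA2, PHYA3, PHYA4, PHYB1, PHYB2, PHYE1 and PHYE2, chosen by their gene identifiers from the 56044 genes of the count table, by a rule that uses no measured value. RNA-seq was performed on leaves of the cultivar BR16 at 20 days after germination (DAG), at vegetative stage V3, and at 80 DAG, at reproductive stage R7, with 3 libraries at each age. The plants were wild type, grown in soil in a greenhouse, and no treatment is named, and the leaf disks came from the third and the seventh trifoliate leaves. The groups differ in age, in plant stage and possibly in leaf position, which cannot be told apart. Ribosomal RNA was depleted from total RNA and stranded paired-end libraries were sequenced. Library totals ranged from 10758425 to 15883253 counts.

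Phytochromes are red and far-red light receptors that carry a bilin chromophore and switch between an inactive form and an active, far-red-absorbing form that moves to the nucleus. In plants, PHYA is the light-labile receptor of far-red and very weak light, whereas PHYB is the light-stable receptor of red light and of shade. PHYE is a light-stable relative of PHYB that, in Arabidopsis, adds to its control of shade responses and flowering. In soybean, PHYA3 and PHYA2 are the maturity loci E3 and E4, whose functional alleles delay flowering under long days.

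Of the 8 genes, 7 had enough counts to be tested, and PHYE2 had none. PHYE1 fell to a level 5.39-fold lower at 80 DAG, with a 95% interval from 3.75 to 7.76-fold. The other 6 genes had log2 fold changes (80 DAG over 20 DAG) between −0.47 for PHYB2 and 0.48 for PHYA2, and none of them passed the threshold. Genes were called at an adjusted p (Benjamini-Hochberg, over 30058 genes) under 0.05 in the quasi-likelihood F test of edgeR. Thus 1 of the 7 tested phytochromes was called lower and 0 were called higher at 80 DAG. An unadjusted p under 0.05 was reached by 2 of the 7, PHYE1 and PHYB2. At least 54.1% of all tested genes reached it too, the share with a smaller p than PHYB2. Among all tested genes, 49.1% were called, 26.0% as lower and 23.1% as higher. DESeq2 and limma-voom also called PHYE1 alone among the phytochromes, and 49.3% and 48.2% of all genes. The median log2 fold change was −0.16 in the 7 phytochromes and −0.02 in all tested genes. Whether the share of called phytochromes differed from that of all genes was not tested.

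**Figure D1:**
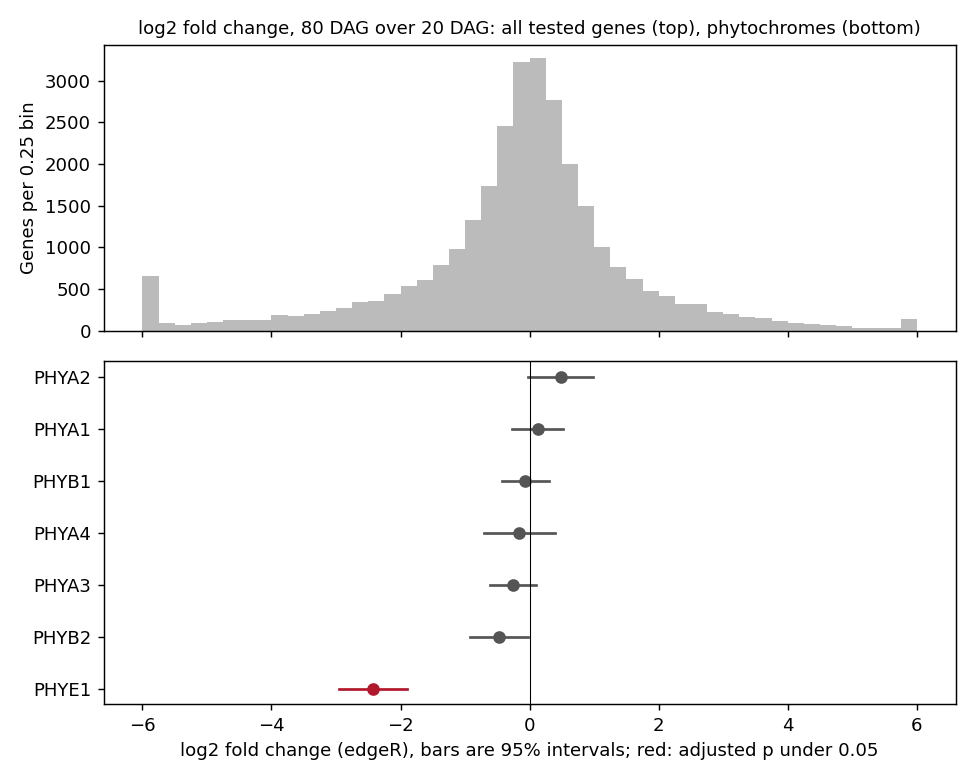
The upper panel counts all 30058 tested genes by log2 fold change, 80 DAG over 20 DAG, in bins of 0.25, with values beyond 6 in either direction placed in the end bins; the lower panel gives the 7 tested phytochromes with 95% intervals. PHYE1 stands at −2.43, with the other 6 genes between −0.47 and 0.48.

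PHYE1 (Glyma.09G088500, chromosome 9) had 135, 157 and 145 raw counts in the libraries of 20 DAG and 35, 38 and 38 in those of 80 DAG. Every 80 DAG library held fewer reads than any 20 DAG library, although the libraries of 80 DAG were on average larger. In CPM, the counts per 1000000 of the effective library size after TMM scaling, PHYE1 went from 13.7 ± 1.27 (SD, n = 3) to 2.55 ± 0.618 (SD, n = 3). Its log2 fold change of −2.43 had a standard error of 0.22 (edgeR, adjusted p = 0.000248). PHYE1 remained past the threshold under all 14 alternatives tried, with log2 fold changes between −2.59 and −2.21. The adjusted p lay between 4.82e-16 (DESeq2) and 0.00371 (edgeR with the replicate block). The 14 include the stricter threshold of 0.01 in the main test, which is not a separate fit. Of all tested genes, 9.58% had a lower log2 fold change than PHYE1.

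In whole-leaf RNA, fewer cells that express a gene and less RNA per cell cannot be told apart. The summed counts of 3 identifiers listed as leaf markers also fell, from 20365 to 44809 per library at 20 DAG to between 7923 and 13399 at 80 DAG, and all 3 were called lower, as were 26.0% of all tested genes. Of 4 identifiers listed as nodule markers, 4 had no count in any library. Of 4 listed as seed markers, 3 had at most 3 counts in any library, and the remaining one had 391 to 556 counts at 20 DAG and 438 to 636 at 80 DAG. No table used here pairs these identifiers with gene names, so their identity was not checked. The part of the leaf markers' fall in the change of PHYE1 was not tested.

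PHYE2 (Glyma.15G196500, chromosome 15), the paralog of PHYE1, had 0 counts in each of the 6 libraries. A count of 0 allows up to 3 counts, or 0.163 to 0.319 CPM depending on the library, for counting error only. PHYE1 held 45.0 to 52.3 times these 3 counts in the libraries of 20 DAG and 11.7 to 12.7 times in those of 80 DAG. PHYE2 was 1 of 12326 genes without a count in any library, which make up 22.0% of the table. Among the 10 identifiers next to PHYE2 in the numbering, 5 on each side, 7 had counts and 3 had enough to be tested. The 6-library totals of the 10 had a median of 15 and a maximum of 4994. Among the 10 next to PHYE1, 5 had counts and 3 were tested, with a median total of 1 and a maximum of 3543. No change with age could be measured for PHYE2. How reads shared between PHYE1 and PHYE2 were counted is not given in the sources used here, and its part in the count of 0 was not tested.

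**Figure D2:**
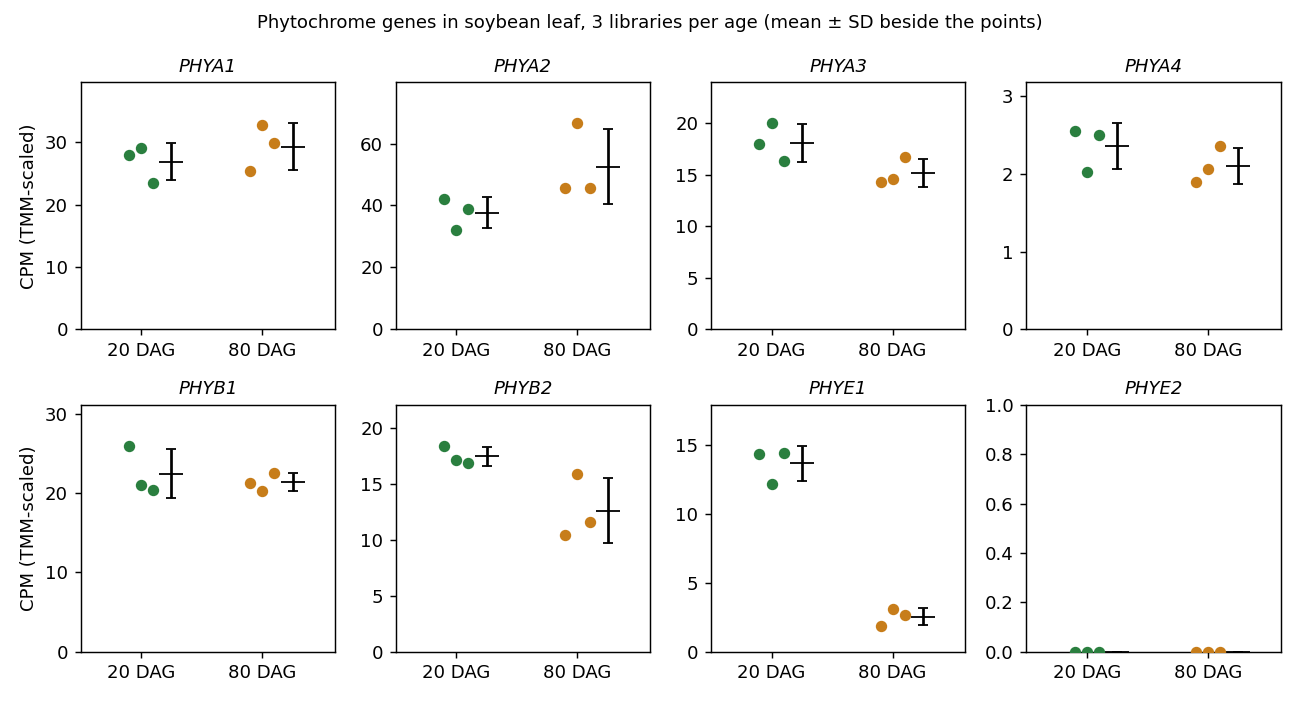
CPM of each phytochrome gene in the 3 libraries of 20 DAG (green) and the 3 of 80 DAG (orange), with the mean and SD of each age beside the points; each panel has its own vertical axis from 0. The PHYE1 libraries of 80 DAG lie between 1.90 and 3.13 CPM, below the 12.2 to 14.5 CPM of 20 DAG, and PHYE2 is at 0 throughout.

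Among the PHYA genes, PHYA2 (E4, Glyma.20G090000, chromosome 20) had raw counts of 394, 414 and 389 at 20 DAG and of 844, 808 and 656 at 80 DAG. Its CPM values were 32.2 to 41.9 at 20 DAG and 45.5 to 66.5 at 80 DAG, and the ages did not overlap. The mean was 37.7 ± 4.97 CPM at 20 DAG and 52.6 ± 12.0 CPM at 80 DAG (SD, n = 3 each). Its log2 fold change of 0.48 had a standard error of 0.21, a 95% interval from −0.02 to 0.98 and, in edgeR, an adjusted p of 0.101, and PHYA2 was not called. PHYA2 was called under 1 of 14 alternatives, the scaling by library totals alone, with a log2 fold change of 0.70 (edgeR, adjusted p = 0.0239). With that scaling, 44.2% of all genes were called. The 14 include the stricter threshold of 0.01 in the main test, which could not call PHYA2. Without replicate 2 of 80 DAG, the highest of its age, the log2 fold change of PHYA2 was 0.29 (adjusted p = 0.264).

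PHYA1 (Glyma.10G141400, chromosome 10), the paralog of PHYA2, held 263, 375 and 236 counts in the libraries of 20 DAG and 468, 398 and 431 at 80 DAG. After scaling, the ages overlapped, with 26.9 ± 2.97 and 29.3 ± 3.71 CPM (SD, n = 3 each). Its log2 fold change was 0.12 (standard error 0.17, 95% interval −0.27 to 0.52, adjusted p = 0.570 from edgeR's test).

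PHYA3 (E3, Glyma.19G224200, chromosome 19) gave 169, 257 and 164 counts in the 20 DAG libraries and 263, 177 and 241 in those of 80 DAG. Scaled, these were 18.1 ± 1.82 and 15.2 ± 1.33 CPM (SD, n = 3 each), and a library of 80 DAG lay within the range of 20 DAG. The log2 fold change was −0.26 (standard error 0.15, 95% interval −0.61 to 0.10, adjusted p = 0.199 from edgeR's test). Under the scaling by library totals it was −0.03.

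PHYA4 (Glyma.03G227300, chromosome 3) was the phytochrome with the fewest counts among those tested, with 24, 26 and 25 at 20 DAG and 35, 25 and 34 at 80 DAG. Its levels were 2.36 ± 0.291 and 2.10 ± 0.233 CPM (SD, n = 3 each) and overlapped. The log2 fold change of −0.16 (standard error 0.24, 95% interval −0.71 to 0.39, adjusted p = 0.601 from edgeR's test) turned to 0.08 under the scaling by library totals.

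Of the genes for the red light receptor, PHYB1 (Glyma.09G035500, chromosome 9) gave raw counts of 244, 271 and 204 at 20 DAG and of 392, 247 and 326 at 80 DAG. It stood at 22.5 ± 3.05 and 21.4 ± 1.14 CPM (SD, n = 3 each), and the libraries of the ages overlapped. Its log2 fold change of −0.07 (standard error 0.16, 95% interval −0.43 to 0.30, adjusted p = 0.733 from edgeR's test) was the smallest in absolute size of the 7 genes. It was 0.18 under the scaling by library totals and 0.04 without replicate 1 of 20 DAG.

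PHYB2 (Glyma.15G140000, chromosome 15) had raw counts of 173, 220 and 169 at 20 DAG and of 192, 193 and 167 at 80 DAG. In CPM, all 80 DAG libraries, with 10.4, 15.9 and 11.6, were below the 20 DAG libraries, with 18.4, 17.1 and 16.9. The mean was 17.5 ± 0.831 CPM at 20 DAG and 12.6 ± 2.88 CPM at 80 DAG (SD, n = 3 each). The log2 fold change of −0.47 had a standard error of 0.19, a 95% interval from −0.92 to −0.02, an unadjusted p of 0.0420 and, over all genes in edgeR, an adjusted p of 0.0777. Without replicate 2 of 80 DAG, the highest of its age, it was −0.66 (adjusted p = 0.0190), and 2 phytochromes were then called, beside 46.4% of all genes.

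The CPM values of the ages did not overlap for 3 of the 7 tested phytochromes, namely PHYA2, PHYB2 and PHYE1, against 60.8% of all tested genes. All 80 DAG libraries were higher in 29.6% of all genes, as for PHYA2, and lower in 31.2%, as for PHYB2 and PHYE1. The SD of the log2 CPM within an age, pooled over the ages, ran from 0.13 for PHYA3 to 0.26 for PHYE1. Its median was 0.17 over the 7 genes and 0.30 over all tested genes, which were not matched for level. For PHYE1 and PHYA2, 41.9% and 41.8% of all tested genes had a smaller SD.

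Ratios of raw counts within a library are free of any scaling between libraries, and were used to compare the members of each paralog pair. The count ratio of PHYA1 to PHYA2 was 0.668, 0.906 and 0.607 at 20 DAG and 0.555, 0.493 and 0.657 at 80 DAG. The log2 ratio differed by −0.34 between the ages (exact permutation test, two-sided, p = 0.2, adjusted over 3 pairs 0.3), and the ages overlapped. PHYB1 to PHYB2 gave ratios of 1.41, 1.23 and 1.21 at 20 DAG and 2.04, 1.28 and 1.95 at 80 DAG. Here, 2 libraries of 80 DAG were above all of 20 DAG and replicate 2 of 80 DAG was within their range, with a difference in log2 ratio of 0.43 (exact permutation test, two-sided, p = 0.2, adjusted 0.3). The ratio of PHYA3 to PHYA4 ran from 6.56 to 9.88 at 20 DAG and from 7.08 to 7.51 at 80 DAG (difference in log2 ratio −0.09; exact permutation test, two-sided, p = 1). With 3 libraries against 3, this test cannot give a p below 0.1. No ratio could be formed for PHYE1 and PHYE2. The reads of near-identical paralogs may also have been divided between them in the counting, so that each value of a pair carries an uncertain assignment.

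**Figure D3:**
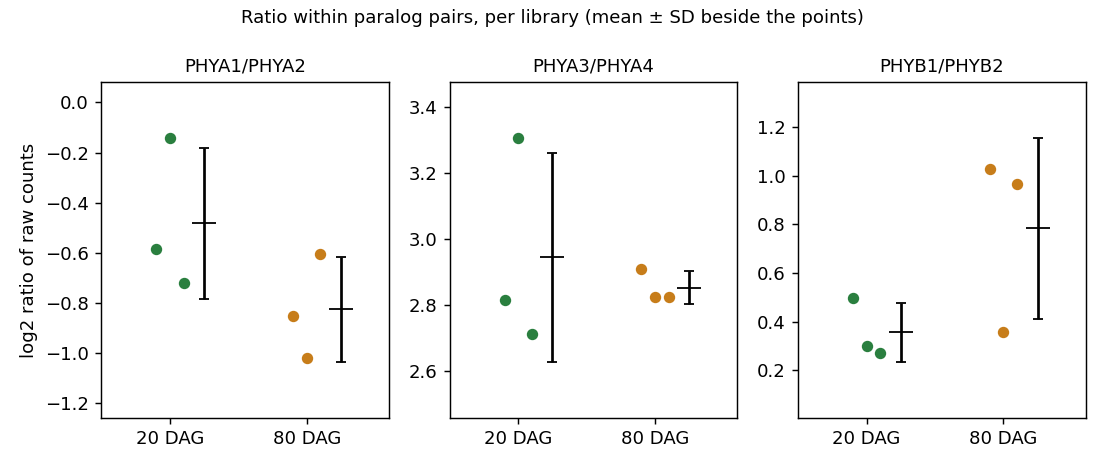
The log2 ratio of raw counts within 3 paralog pairs is plotted for each library of 20 DAG (green) and 80 DAG (orange), with the mean and SD of each age beside the points. In all 3 pairs, at least 1 library of an age lies within the range of the other age.

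The ratio of PHYA2 (E4) to PHYA3 (E3), a comparison chosen after the values were seen, was 2.33, 1.61 and 2.37 in the counts of 20 DAG and 3.21, 4.56 and 2.72 in those of 80 DAG. All libraries of 80 DAG had the higher ratio, and no test was made of it. PHYA2 and PHYA3 were picked with their log2 fold changes of 0.48 and −0.26 known. A higher mean ratio at 80 DAG was therefore built into the choice, and neither gene was called by itself.

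Summed over the family, the phytochromes had 139 ± 9.17 CPM at 20 DAG and 136 ± 17.6 CPM at 80 DAG (SD, n = 3 each), a difference smaller than the spread between replicates. Within this sum, PHYA genes took 60.6, 62.3 and 61.1% of the raw counts at 20 DAG and 72.2, 74.7 and 71.9% at 80 DAG. The PHYB genes took 28.8 ± 0.890% at 20 DAG and 25.2 ± 1.61% at 80 DAG, and PHYE1 took 9.88 ± 0.906% and 1.86 ± 0.255% (SD, n = 3 each). For each of the 3 classes, the shares of the ages did not overlap. The shares of a library add up to the whole, so they are not 3 separate observations. Among single tested genes, 60.8% did not overlap in CPM. Gene lengths were not used here, so these shares compare the ages and not the levels of the classes with each other.

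**Figure D4:**
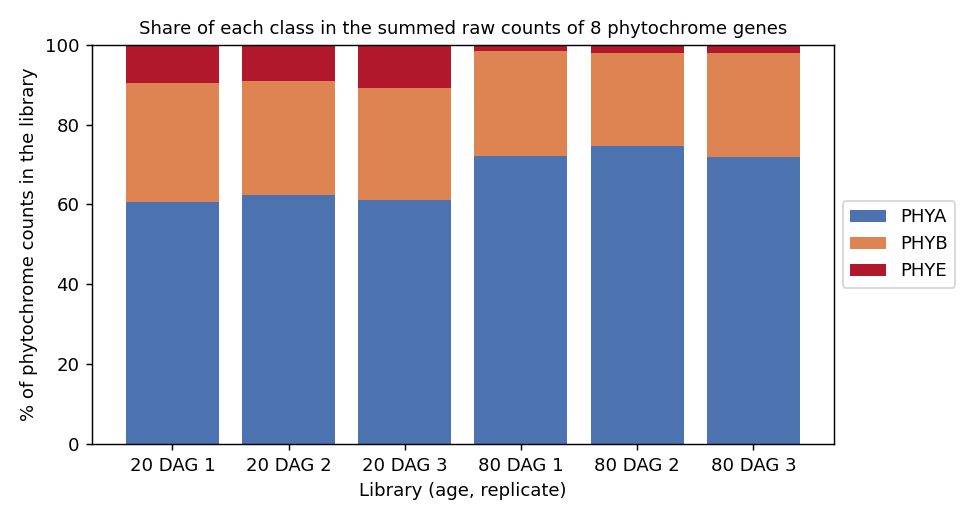
Bars give the percentage of the summed raw counts of the 8 phytochrome genes that fell to PHYA, PHYB and PHYE in each library, labelled by age and replicate. The PHYE segment takes 9.13 to 10.9% in the libraries of 20 DAG and 1.57 to 2.01% in those of 80 DAG.

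Since the fall of PHYE1 raises the other shares by itself, the shares were also taken without it, which was decided after seeing the data. The PHYA genes then made up 67.1, 68.6 and 68.6% of the PHYA and PHYB counts at 20 DAG and 73.4, 76.2 and 73.4% at 80 DAG, and the ages still did not overlap. For every 100 counts of PHYA and PHYB, PHYE1 had 11.0 ± 1.12 counts at 20 DAG and 1.90 ± 0.264 at 80 DAG (SD, n = 3 each), a ratio of 5.77 that does not depend on the scaling of the libraries. In CPM, the class sum changed from 85.1 ± 4.83 to 99.2 ± 14.8 for PHYA and from 39.9 ± 3.88 to 34.0 ± 2.26 for PHYB (SD, n = 3 each). The PHYA sums overlapped, with 81.3 to 90.5 CPM at 20 DAG and 87.4 to 116 CPM at 80 DAG. The PHYB sums did not overlap in CPM, beside 60.8% of single tested genes. Their log2 ratio was −0.23 with TMM factors and 0.0045 under the scaling by library totals.

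For PHYA4 and PHYB1, the direction of the small change depended on the scaling, whereas PHYA1, PHYA2, PHYA3 and PHYB2 kept theirs. Library totals alone, in place of TMM factors, raised the fold changes as a whole, with a median over the tested genes that was higher by 0.23 on the log2 scale and stood at 0.21. With this scaling 4 of the 7 phytochromes had a log2 fold change above 0, against 2 with TMM factors, and 2 were called, PHYA2 as higher and PHYE1 as lower.

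**Figure D5:**
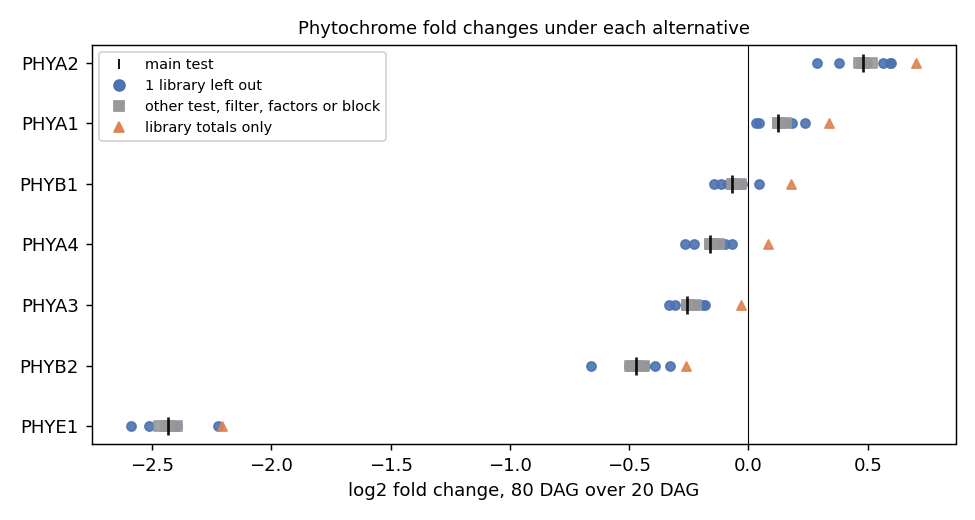
The log2 fold change, 80 DAG over 20 DAG, of each tested phytochrome is plotted in the main test (black tick) and under each alternative test, filter, scaling, replicate block or left-out library. PHYE1 stays between −2.59 and −2.21, and library totals (orange triangles) give a higher value than the main test for all 7 genes.

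Outside the family, 2 lists of identifiers drawn up from background knowledge were followed. Of 4 identifiers listed as candidates for light signalling genes, 4 were tested and 4 were called lower at 80 DAG, beside 26.0% of all tested genes, with log2 fold changes from −4.69 to −3.42 in edgeR's test. Of 5 listed as candidates for photoperiod genes, 2 were called higher, beside 23.1% of all tested genes, by 1.27 and 2.64 on the log2 scale, and 3 had at most 3 counts in any library and were not tested. The tables used here pair none of these identifiers with a gene name, so no role is assigned to them.

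The genes outside the family whose log2 CPM over the 6 libraries was most like that of PHYE1 were Glyma.05G188200 (Pearson's r = 0.9996) and Glyma.06G145000 (r = 0.9990), with log2 fold changes of −1.83 and −0.56 (adjusted p = 0.000401 and 0.0211 from edgeR's test). Those most like PHYA2 were Glyma.06G025900 (r = 0.9972) and Glyma.07G029300 (r = 0.9932), neither of which was called, with log2 fold changes of 0.28 and 0.15. These are descriptions over 6 libraries in 2 groups, which share the difference between the ages and the scaling, and these genes are the best matches among 30058.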

How the data were processed

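Leaf RNA of 6 libraries was sequenced by the authors, who deposited whole-number counts per gene, not normalized, for 56044 Wm82.a2.v1 gene models. The submitters' processing notes name CASAVA 1.7, Bowtie2 and DESeq2. The counting program, and whether it used strand, are not given in the sources used here. All 6 columns matched a sample name. Within each age, the chi-square per degree of freedom between libraries was 7.22 to 45.3, so no library copied another. The paper describes them as biological triplicates.

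Counts were tested with edgeR 4.0.16 in R 4.3.3 (TMM factors, default expression filter, quasi-likelihood F test, adjusted p under 0.05, no fold change minimum). Standard errors were derived from the F statistic, as the size of the log2 fold change over the root of F, and the 95% intervals use them. The test was first run on simulated data. DESeq2 (version 1.42.0 here, the paper's package), limma-voom (limma 3.58.1), other scalings and filters, the replicate block and each library left out were alternatives. A stricter threshold of 0.01 on the adjusted p of the main test was counted as an alternative too. Python 3.11.15, pandas 2.3.3 and scipy 1.17.1 were used for summaries.

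The rule for the members uses identifiers alone, but members, lists and tests were chosen with earlier results of these data known, and the comparisons named in the text as chosen after seeing the values were added last. All 8 phytochromes are named. The lists came from background knowledge, and the 2 genes most like PHYA2 and PHYE1 by Pearson correlation are given. Those most like PHYB1, and single list genes, are left out to keep identifiers without a name few. Member names came with the identifiers, and RefSeq (Glycine_max_v4.0) lists 5 of the 8 names, as symbol or synonym, on the same chromosome, and pairs 0 of the 8 identifiers with a gene. Sequences, gene lengths and coordinates were not used here.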

Additional observations from a re-analysis of the deposited data

How the results depend on the processing

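Over the alternatives, the number of phytochromes called was 1 except under library totals (2, with PHYA2 as well) and without replicate 2 of 80 DAG (2, with PHYB2 as well), and it was 1 to 2 over the left-out libraries. Under library totals the log2 fold change was 0.70 for PHYA2, 0.084 for PHYA4 and 0.18 for PHYB1, and the log2 ratio of the class sums was 0.44 for PHYA and 0.0045 for PHYB, a scaling that raises the values of 80 DAG as a whole. With each library left out in turn, the log2 fold change ran from 0.29 to 0.60 for PHYA2, from 0.03 to 0.24 for PHYA1, from −0.14 to 0.045 for PHYB1 and from −0.66 to −0.33 for PHYB2, and the difference in the PHYA3 to PHYA4 log2 ratio from −0.21 to 0.088, above 0 without replicate 2 of 20 DAG. The cause of the changes with single libraries was not tested. Libraries with the same replicate number did not deviate together (correlations across genes −0.24, −0.33 and 0.08). With the replicate block, PHYE1 had a log2 fold change of −2.44 (adjusted p = 0.00371 from edgeR's test), 1 phytochrome was called, and 11702 genes were called in all, against 14758 without it. Of 176 values under alternatives, 166 were rated as unchanged. For single genes and pair ratios, this meant the same direction and side of the threshold. The test of pair ratios cannot give a p below 0.1, so for them only the direction could differ. For class sums, unchanged meant a move smaller than the spread between replicates. For counts of genes called it meant a small difference, such as 5 against 6 candidates from the light signalling and photoperiod lists. The 176 include the stricter threshold of 0.01 on the main fit, which cannot change a direction. The class sums per kilobase were not run, since coding lengths were not used here. PHYA4 had 24 to 35 counts per library, and a change within its 95% interval could not be told from none.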
